A study of Mus musculus with 16 samples.

Results

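The genes described here are 40 cell cycle genes, chosen by symbol as markers of DNA replication and mitosis, out of 16094 genes in a table of normalised read counts from 16 mouse tumours. All 40 members were found, and 40 of 40 passed a filter on low values (a mean normalised count of at least 5), which 14672 genes passed. The tumours grew in mice from B16R2L, a melanoma cell line, and were profiled by sequencing the 3′ ends of messenger RNA. The cells carried a non-targeting hairpin (shCtrl) or a hairpin against Mdk, the gene of the secreted factor midkine (shMdk-5, written shMdk here). Tumours of 100 mm3 were then treated for 2 weeks, 2 times a week, with a PD1-blocking antibody (anti-PD1, clone RMP1-14), aimed at an inhibitory receptor of T cells, or with its IgG2a control. The sample labels give the anti-PD1 dose as 10 mg/kg, and the series design gives the same number in grams per kg. The 4 groups were shCtrl with IgG2a, shCtrl with anti-PD1, shMdk with IgG2a and shMdk with anti-PD1, with 4 tumours each, all of the same parental line. Each arm of the knockdown rests on 1 hairpin and 1 line, so the loss of Mdk and other differences between the lines cannot be told apart. The strain and age of the mice are not given in the sources used here.

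A dividing cell passes through G1, copies its DNA in S phase, and separates the copies in mitosis. Cyclin D and cyclin E with their kinases release E2F factors, which switch on the genes of origin licensing and DNA synthesis. Later, factors that include FOXM1 and the MuvB and B-MYB complex switch on the cyclin B, kinetochore and spindle genes, and because these genes are silent in resting cells their RNA is widely used to gauge how many cells of a tumour are cycling. In bulk tumour RNA, fewer cycling cells and less RNA per cycling cell cannot be told apart.

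Of the promoters, 4 are shown, of genes named in the results below. These are Cenpf and Cenpe, which differed between the lines, Ccnb2, a mitotic cyclin, and Mcm3, a replication gene. Ccnb2 was the 1 member whose shMdk values all lay below those of shCtrl under anti-PD1, which was so for 5.20% of all genes. The windows run from 250 bases before to 50 bases after the annotated start, on the gene's own strand, from RefSeq (GRCm38.p6). Capitals mark 3 words searched on both strands: the CHR bound by MuvB complexes (TTTGAA or TTCGAA), an E2F site (TTTGGCGC, TTTCCCGC or TTTCGCGC) and the CCAAT box (CCAAT). No 2 words overlap in the windows shown.
Cenpf, chr1:189688037-189688336, minus strand: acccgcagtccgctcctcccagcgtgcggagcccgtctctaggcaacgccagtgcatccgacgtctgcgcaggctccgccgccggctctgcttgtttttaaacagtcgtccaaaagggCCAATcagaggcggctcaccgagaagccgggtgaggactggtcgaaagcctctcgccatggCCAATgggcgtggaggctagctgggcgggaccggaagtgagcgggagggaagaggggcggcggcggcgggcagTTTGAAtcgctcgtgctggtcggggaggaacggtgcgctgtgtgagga
Cenpe, chr3:135212313-135212612, plus strand: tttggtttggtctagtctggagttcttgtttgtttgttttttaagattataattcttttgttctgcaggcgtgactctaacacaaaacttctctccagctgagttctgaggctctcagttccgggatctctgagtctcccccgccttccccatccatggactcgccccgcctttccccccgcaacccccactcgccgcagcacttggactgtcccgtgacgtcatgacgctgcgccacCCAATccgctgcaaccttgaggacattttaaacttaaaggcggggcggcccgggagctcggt
Ccnb2, chr9:70421505-70421804, minus strand: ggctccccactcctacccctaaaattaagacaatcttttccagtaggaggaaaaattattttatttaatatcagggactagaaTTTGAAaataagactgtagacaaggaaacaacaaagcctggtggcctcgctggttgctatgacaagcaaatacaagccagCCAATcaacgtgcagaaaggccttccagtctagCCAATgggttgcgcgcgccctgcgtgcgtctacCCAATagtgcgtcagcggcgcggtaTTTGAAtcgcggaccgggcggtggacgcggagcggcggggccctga
Mcm3, chr1:20820263-20820562, minus strand: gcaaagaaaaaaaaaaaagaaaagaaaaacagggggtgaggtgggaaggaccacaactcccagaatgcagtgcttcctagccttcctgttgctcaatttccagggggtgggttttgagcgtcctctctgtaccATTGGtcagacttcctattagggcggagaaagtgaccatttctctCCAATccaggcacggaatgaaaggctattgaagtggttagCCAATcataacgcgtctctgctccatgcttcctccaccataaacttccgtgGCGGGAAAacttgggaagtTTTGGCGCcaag
The Cenpf window holds 1 CHR and 2 CCAAT boxes, and the Ccnb2 window holds 2 CHR and 3 CCAAT boxes. The Mcm3 window has 2 E2F words and 3 CCAAT boxes, 1 of each read on the other strand. In the Cenpe window 1 CCAAT box was found and no CHR word.

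Windows were found for 32 of the 40 members. A CHR word was in 14 of 18 mitotic members (77.8%) and 3 of 12 replication members (25.0%), against 21.7% of 27025 genes with a window. An E2F word was in 6 of 12 replication members (50%) and 1 of 18 mitotic members (5.56%), against 2.12% of all genes. CCAAT boxes were common to both, in 9 of 12 replication members (75.0%) and 16 of 18 mitotic members (88.9%), 25 of the 32 members (78.1%) in all, against 41.1% of all genes. No test compared these shares. These are matches of letters and not shown to be bound sites.

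Recovered reads ran from 5686405 to 8886334 per tumour, and 15508 to 16014 genes had a read. Mdk (chromosome 2, 91929805 to 91932297, minus strand, GRCm38) checked the labels. It read 601, 727, 959 and 1161 normalised counts with shCtrl and IgG2a, and 925, 606, 1104 and 856 in shCtrl anti-PD1 tumours. In shMdk tumours they were 150.2, 203, 323 and 121 with IgG2a and 312, 289.9, 147 and 96.5 with anti-PD1, below each shCtrl tumour. The log2 difference over both antibodies was -2.16 ± 0.25 (SE, limma adjusted p = 3.88e-05). The 7 melanocytic markers, among them Dct and Pmel, were present in all 16 tumours.

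Libraries that stood apart were of 2 kinds, both found after the data were seen. In 5 libraries, levels were higher for genes with more GC bases near the 3′ end: shCtrl IgG2a tumours 1 and 2, shMdk IgG2a tumours 3 and 4, and shMdk anti-PD1 tumour 1. Their slopes were 0.09 to 0.19 log2 units per 10% GC, against -0.11 to -0.01 in the other 11. The shCtrl anti-PD1 group held none of the 5. Gm42418, which lies over a ribosomal RNA repeat, took 0.880% to 1.56% of reads in 14 libraries. In tumour 2 of the shCtrl anti-PD1 group its share was 4.47%, and in tumour 1 of the shMdk IgG2a group it was 3.17%. RNA integrity varied between samples, per the labels, and its value for each tumour is not given in the sources used here. The counts of members called, and the values of the members a result turns on, are given below also without the 5 libraries.

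The 5 libraries with a positive GC slope differed from the other libraries of their own groups in these genes. Within the 3 groups that hold both kinds of library, 7 members (17.5%) read over 2 times lower in the 5 libraries, against 5.49% of all genes tested. These were Cdk1, the kinase that drives entry into mitosis, Mcm4, a helicase subunit, and Aurkb, the kinase of the chromosomal passenger complex. The others were Bub1b and Bub1 of the spindle checkpoint, Cenpa, the centromeric histone, and Kif20a, a kinesin of cytokinesis. All 7 were picked by size after their values were seen.

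Cdk1 showed the widest range of the members. It read 221, 875, 2509 and 2782 normalised counts with shCtrl and IgG2a, 2544, 1893, 2286 and 2079 in shCtrl anti-PD1, 1475, 1802, 1241 and 233 in shMdk IgG2a and 1050.2, 1723, 2579 and 2366 in shMdk anti-PD1. In the 3 groups concerned, each library with a positive slope was below every other library of its group. The mean difference within groups was -1.75 log2 units, or 3.36 times lower.

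Aurkb had the same pattern, at 40.5, 65.0, 284 and 277 for shCtrl and 94.6, 111, 81.5 and 50.5 for shMdk with IgG2a. Under anti-PD1 it had 217, 131, 219 and 187 in shCtrl and 60.2, 122, 179.7 and 195 in shMdk. Its difference within groups was -1.50 log2 units, and those of Mcm4, Bub1b, Bub1, Cenpa and Kif20a were -1.67, -1.34, -1.13, -1.13 and -1.10. All 7 were lower in each of the 3 groups.

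Of all 40 members, 23 were lower in the 5 libraries in each of the 3 groups and 3 were higher in each: Mki67, the antigen of the Ki-67 proliferation index (0.35 log2 units), E2f1 (0.32) and Cdc20, an activator of the anaphase-promoting complex (0.10). Mki67 and Cdk1, both read as signs of proliferation, thus went opposite ways between libraries of 1 group. How many of all genes were lower or higher in each of the 3 groups was not counted, so 23 and 3 have no share to be set against. The members' median was -0.25, against 0.03 for all genes. Across members the difference had a Spearman correlation of 0.338 with the GC content of the last 300 transcript bases (n = 40 members), against 0.341 over 14621 genes. The 5 libraries were chosen by their slope on this same GC content, so a positive correlation over all genes was set by that choice. The points also share the same libraries and are not independent. Median GC content was 41.2% in the members, 35.3% in the 7 members above and 42.7% over all genes. Cdk1 and Mki67 both stood at 42.7%. These values come from the longest protein-coding transcript of a gene, whose end may not be the end that was sequenced.

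**Figure D1:**
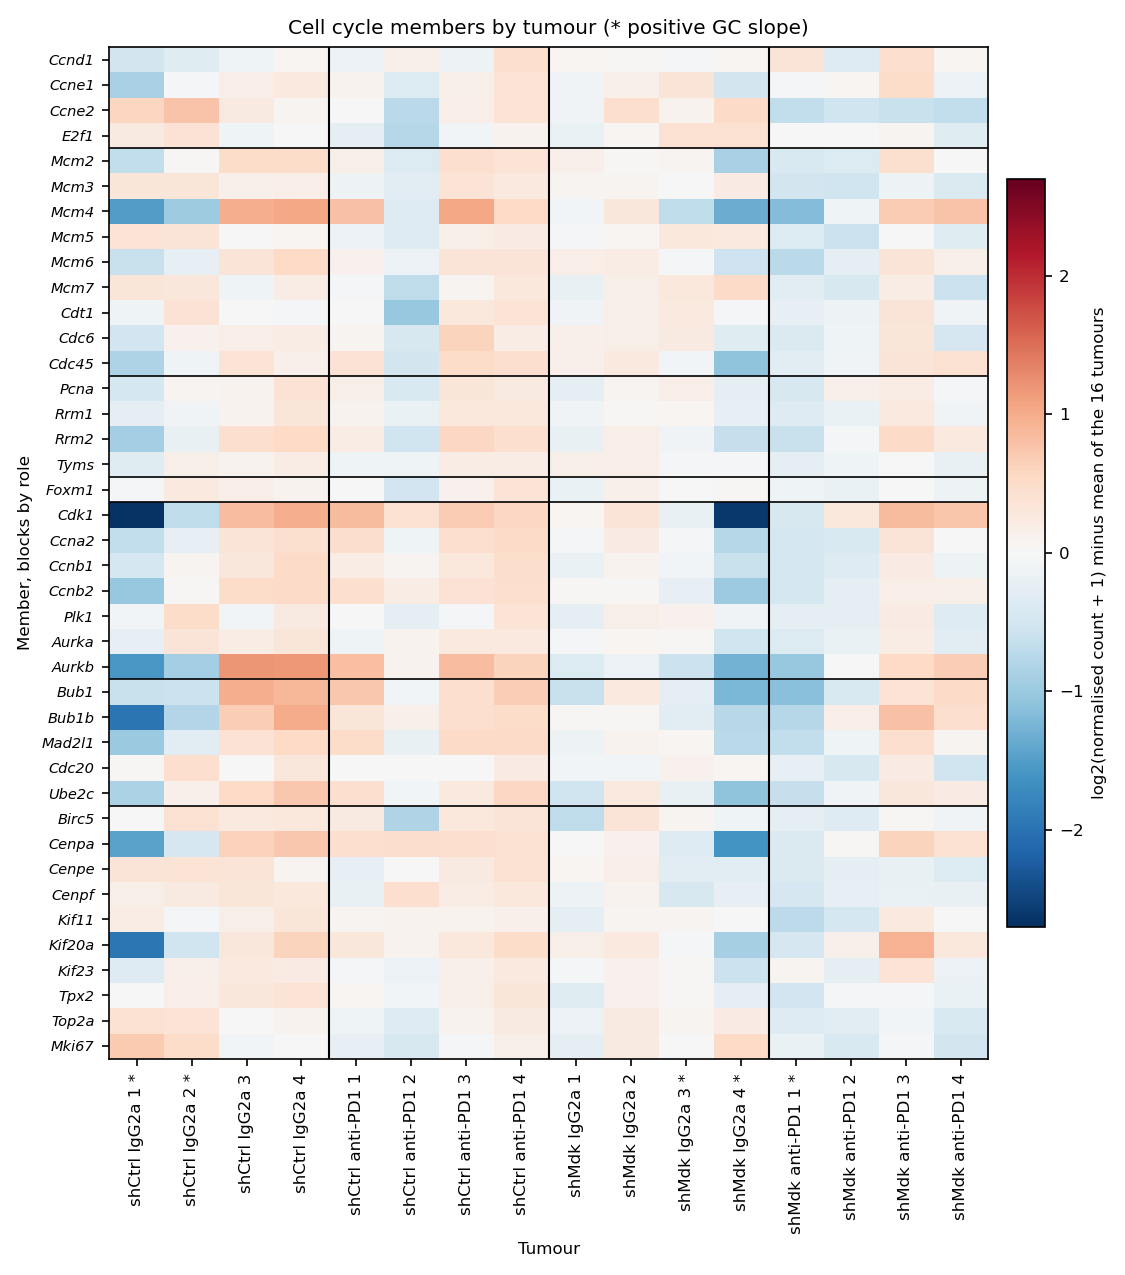
Log2(normalised count + 1) of each of the 40 members (rows, in blocks by role) minus its mean over the 16 tumours, in each tumour (columns). Columns with an asterisk are the 5 libraries with a positive GC slope, where Cdk1, Aurkb, Bub1b, Cenpa and Kif20a are dark blue in shCtrl IgG2a tumour 1 while Mki67 is red.

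**Figure D2:**
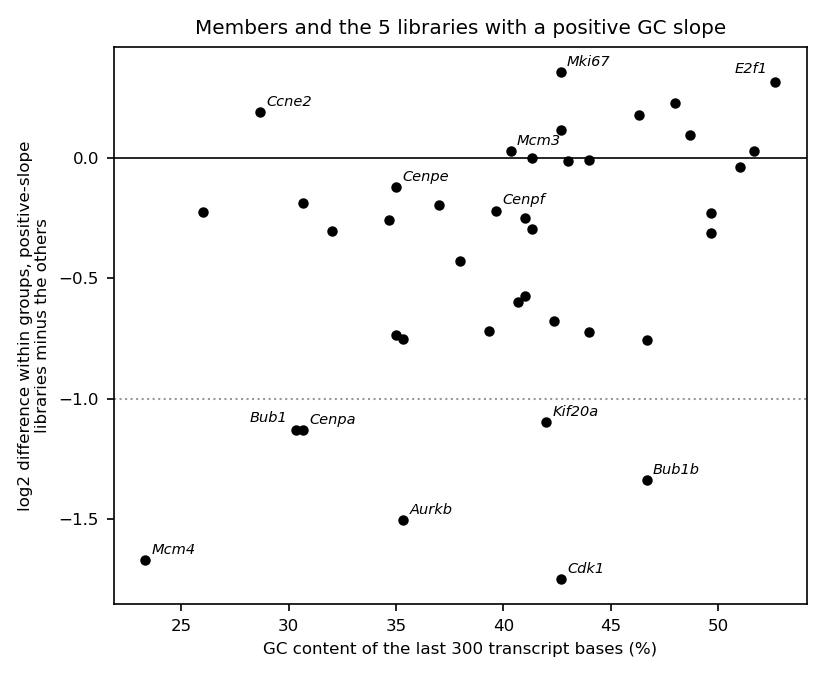
Difference within groups between the 5 libraries with a positive GC slope and the others (y axis, log2 units, mean of 3 groups) against the GC content of the last 300 transcript bases (x axis, %), 1 point per member. The dotted line marks 2 times lower. Cdk1 lies at -1.75 and Mki67 at 0.35, both at 42.7% GC by the longest protein-coding transcript.

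Between the lines, 2 centromere genes were lower in shMdk tumours: Cenpf, which encodes a protein of the outer kinetochore, and Cenpe, which encodes the kinesin that carries chromosomes to the spindle equator. Both differences were small, 0.74 and 0.76 times the shCtrl level. Over both antibodies, 8 tumours against 8, these 2 of 40 members (5.0%) passed limma at an adjusted p under 0.05, against 8.40% of all genes, or 2.17% of all genes for calls in the lower direction. The other 38 members did not pass. Signs leaned 1 way all the same, with 35 of 40 members lower in shMdk and a median of -0.21 log2 units. Over all genes 52.6% were lower, with a median of -0.02. The members share the same tumours, so their signs are not independent of each other. By tumour, the members' median deviation from their means was 0.10 ± 0.27 log2 units in shCtrl (SD, n = 8, range -0.41 to 0.36). In shMdk it was -0.09 ± 0.22 (range -0.40 to 0.26). Within groups this tumour median had an SD of 0.26. An unadjusted p under 0.05 was reached by 8 members (20%) and by 21.0% of all genes, a share close to that of the members.

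Cenpf (chromosome 1, 189640606 to 189688086, minus strand) had normalised counts of 1398, 1475, 1568 and 1525 in IgG2a-treated shCtrl tumours and 1087, 1725, 1429 and 1537 in shCtrl anti-PD1 tumours. In shMdk tumours it had 1135, 1339, 933 and 1082 with IgG2a and 912, 1070.3, 1101 and 1097 with anti-PD1. Under IgG2a the lines did not overlap, and under anti-PD1 1 shCtrl tumour lay within the shMdk range. Means were 1468 ± 183 in shCtrl and 1084 ± 131 in shMdk (SD, n = 8). The log2 difference was -0.44 ± 0.10 (SE, limma adjusted p = 0.0111, 95% interval -0.65 to -0.22).

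Cenpe (chromosome 3, 135212537 to 135273611, plus strand) had 978, 994, 977 and 815 in IgG2a-treated shCtrl tumours and 664, 781, 918 and 1032 in shCtrl anti-PD1 tumours. It had 796, 876, 636 and 629.7 in shMdk IgG2a and 586, 638, 668 and 594 in shMdk anti-PD1 tumours. Under each antibody 1 tumour of each line overlapped with the other line. Means were 895 ± 128 and 678 ± 103 (SD, n = 8), with a log2 difference of -0.40 ± 0.11 (SE, limma adjusted p = 0.0233).

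These calls depend on which libraries are counted. Without the 5 libraries, Cenpf was at -0.36 (limma adjusted p = 0.112) and Cenpe at -0.25 (0.303), neither past the threshold. Instead Aurkb (-0.81, adjusted p = 0.0171) and Ccnb2, a mitotic cyclin (-0.40, adjusted p = 0.0474), were lower, where 1.31% of all genes were called lower. The median of the members without the 5 was -0.24, with 37 of 40 lower. Without the 2 libraries high in Gm42418, 4 members were called lower (Cenpf, Cenpe, Mcm3 and Ccne2), where 2.55% of all genes were. With the GC slope as a covariate 3 were called lower (Cenpf, Cenpe and Mcm3), or 7.5% of members, where 5.03% of all genes were. The Cenpe call also ended when any 1 of 4 tumours was left out, with adjusted p of 0.0530 without shCtrl anti-PD1 tumour 3, 0.0579 without shCtrl anti-PD1 tumour 4, 0.0577 without shMdk IgG2a tumour 3 and 0.0525 without shMdk anti-PD1 tumour 1. With libraries scaled to equal totals Cenpe was at -0.33 (limma adjusted p = 0.0796).

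**Figure D3:**
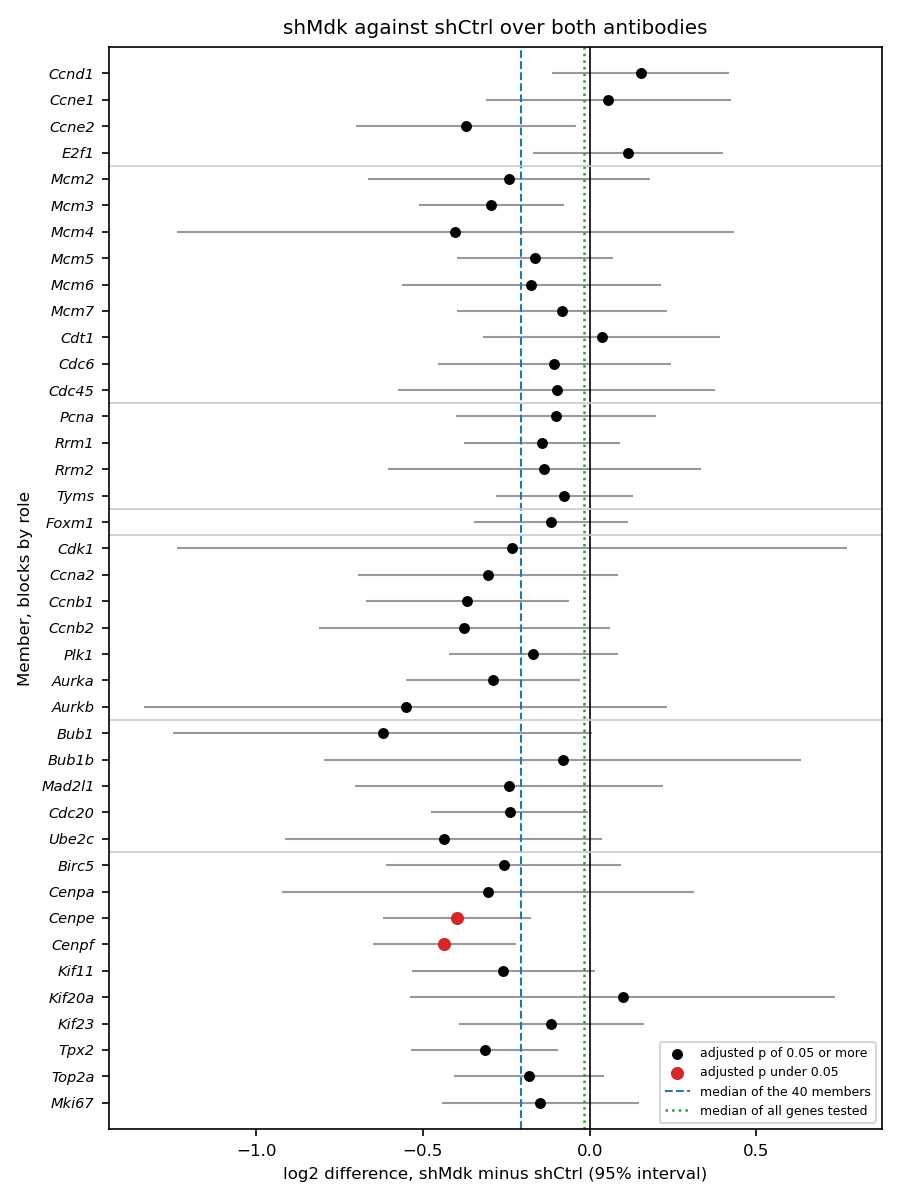
Log2 difference between shMdk and shCtrl tumours over both antibodies for each of the 40 members (x axis, with its 95% interval), in blocks by role. Red points, Cenpf and Cenpe, have a limma adjusted p under 0.05, and 35 of the 40 points lie left of 0, around the dashed median of -0.21.

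Among the 4 genes of the G1 to S transition none passed, and 3 of 4 were higher in shMdk by sign (median 0.09 log2 units). Ccnd1, cyclin D1, the cyclin that takes growth signals to the G1 kinases, had 1130.2, 1264, 1470.3 and 1637 in IgG2a-treated shCtrl tumours and 1415, 1762, 1437 and 2169 in shCtrl anti-PD1. In shMdk it had 1660.1, 1628, 1529 and 1656 with IgG2a and 2037, 1249, 2171 and 1651 with anti-PD1. All groups overlapped, and the log2 difference between lines was 0.15 ± 0.13 (limma adjusted p = 0.556).

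E2f1, an activator of S phase genes, had 615, 682, 478 and 522 in IgG2a-treated shCtrl tumours and 436, 303, 493 and 555 in shCtrl anti-PD1. It had 456, 540.2, 692 and 691 in shMdk IgG2a and 522, 521, 542 and 412 in shMdk anti-PD1, again with overlap of all groups. Ccne1 and Ccne2 encode E cyclins, partners of the kinase that starts DNA synthesis. They differed in sign, at 0.06 ± 0.17 and -0.37 ± 0.16 (limma adjusted p = 0.904 for Ccne1 and 0.174 for Ccne2).

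The 9 members of origin licensing and the helicase had a median of -0.16 between the lines, with 8 of 9 lower by sign and none called. Mcm3, a subunit of the MCM helicase that unwinds DNA, had 2838, 2863, 2503 and 2571 in IgG2a-treated shCtrl tumours and 2054, 1854, 2934 and 2746 in shCtrl anti-PD1. It had 2379, 2384, 2286 and 2657 in shMdk IgG2a and 1614, 1575, 2069.5 and 1723 in shMdk anti-PD1, the lowest group. The log2 difference over both antibodies was -0.30 ± 0.10 (SE, limma adjusted p = 0.0939).

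Mcm2, another subunit, had 949, 1541, 2115 and 2122 in IgG2a-treated shCtrl tumours and 1694, 1162, 2079 and 1943 in shCtrl anti-PD1. It had 1651, 1548, 1589.8 and 823 in shMdk IgG2a and 1138, 1159, 2048 and 1516 in shMdk anti-PD1. The 2 lowest values were in libraries with a positive GC slope, and the groups overlapped. Its log2 difference was -0.24 ± 0.20 (limma adjusted p = 0.559).

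Of the rest of that block, Mcm4, Mcm5, Mcm6, Mcm7, the loader Cdc6 and the helicase partner Cdc45 ran from -0.40 to -0.08, and the licensing factor Cdt1 was at 0.04. The 4 genes of DNA synthesis, Pcna, Rrm1, Rrm2 and Tyms, ran from -0.14 to -0.08, with none called. Pcna, the sliding clamp of the DNA polymerases, had 655, 960.2, 970.0 and 1187 in IgG2a-treated shCtrl tumours and 1013, 689, 1149 and 1086 in shCtrl anti-PD1. It had 757, 965, 1034 and 762 in shMdk IgG2a and 673, 1004, 1043 and 887 in shMdk anti-PD1. These ranges overlapped, with a log2 difference of -0.10 ± 0.14 (limma adjusted p = 0.767).

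Tyms, thymidylate synthase, had the narrowest range of the members: 467, 659, 631 and 680.3 in shCtrl IgG2a, 544, 542, 676 and 671 in shCtrl anti-PD1, 652, 667, 574 and 572 in shMdk IgG2a and 494, 545, 591 and 511 in shMdk anti-PD1 tumours. The highest was 1.46 times the lowest, against 12.6 times for Cdk1. Its log2 difference between the lines was -0.08 ± 0.10. Foxm1, the mitotic transcription factor, differed by -0.12 ± 0.11 (limma adjusted p = 0.617).

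All 7 cyclins and kinases of S phase, G2 and mitosis (Cdk1, Ccna2, Ccnb1, Ccnb2, Plk1, Aurka, Aurkb) were lower in shMdk by sign, with a median of -0.30, and none passed. Ccnb1, the main partner of Cdk1 at mitotic entry, had 697, 1018, 1185 and 1376 in IgG2a-treated shCtrl tumours and 1108, 1019, 1184 and 1344 in shCtrl anti-PD1. It had 855, 1036, 915 and 638 in shMdk IgG2a and 698, 762, 1128 and 876 in shMdk anti-PD1. Under both antibodies the shMdk tumours tended to the lower end with overlap, and the log2 difference was -0.37 ± 0.14 (limma adjusted p = 0.144).

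Ccnb2, the other B cyclin here, had 268, 563, 769 and 789 for shCtrl and 564, 565, 468 and 279 for shMdk with IgG2a. Under anti-PD1 it had 755, 627, 717 and 751 in shCtrl and 394, 464, 620.4 and 615 in shMdk. There the lines did not overlap, which was so for 1 of 40 members in the lower direction against 5.20% of all genes. Its log2 difference over both antibodies was -0.38 ± 0.21 (limma adjusted p = 0.329).

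The 5 genes of the spindle checkpoint and the anaphase-promoting complex (Bub1, Bub1b, Mad2l1, Cdc20, Ube2c) were all lower by sign, with a median of -0.24. Bub1 was at -0.62 ± 0.30 (limma adjusted p = 0.246), with an interval of -1.25 to 0.01, and at -0.70 (0.0949) without the 5 libraries. In the block of 10 chromosome, centromere and spindle genes 9 were lower by sign, with a median of -0.26 that includes Cenpf and Cenpe. Tpx2, which brings Aurora A to the spindle, had 652, 743, 812 and 856 in IgG2a-treated shCtrl tumours and 681, 624, 733 and 826 in shCtrl anti-PD1. It had 523, 716, 677 and 552 in shMdk IgG2a and 460.5, 635, 633 and 584 in shMdk anti-PD1, with 1 or 2 tumours overlapping. Its log2 difference was -0.31 ± 0.10 (limma adjusted p = 0.0771).

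Top2a, the topoisomerase that untangles replicated chromosomes, had 6139, 5964, 4633 and 4938 in IgG2a-treated shCtrl tumours and 4298, 3625, 4987 and 5472 in shCtrl anti-PD1. It had 4187, 5499, 4866 and 5407 in shMdk IgG2a and 3649.8, 3811, 4424 and 3502 in shMdk anti-PD1. Mki67 had 2829.9, 2436, 1651 and 1729.8 in IgG2a-treated shCtrl tumours and 1479.7, 1274, 1677 and 1915 in shCtrl anti-PD1. It had 1453, 2038, 1746 and 2499.9 in shMdk IgG2a and 1534, 1304, 1664 and 1222 in shMdk anti-PD1.

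Neither gene separated the lines, at -0.18 ± 0.11 for Top2a and -0.15 ± 0.14 for Mki67 (limma adjusted p = 0.370 and 0.621). The 3 highest Mki67 values were in libraries with a positive GC slope. Over both antibodies the 95% interval of 36 of the 40 members lay within a 2-fold change either way. Those of Aurkb, Bub1, Cdk1 and Mcm4 were wider.

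**Figure D4:**
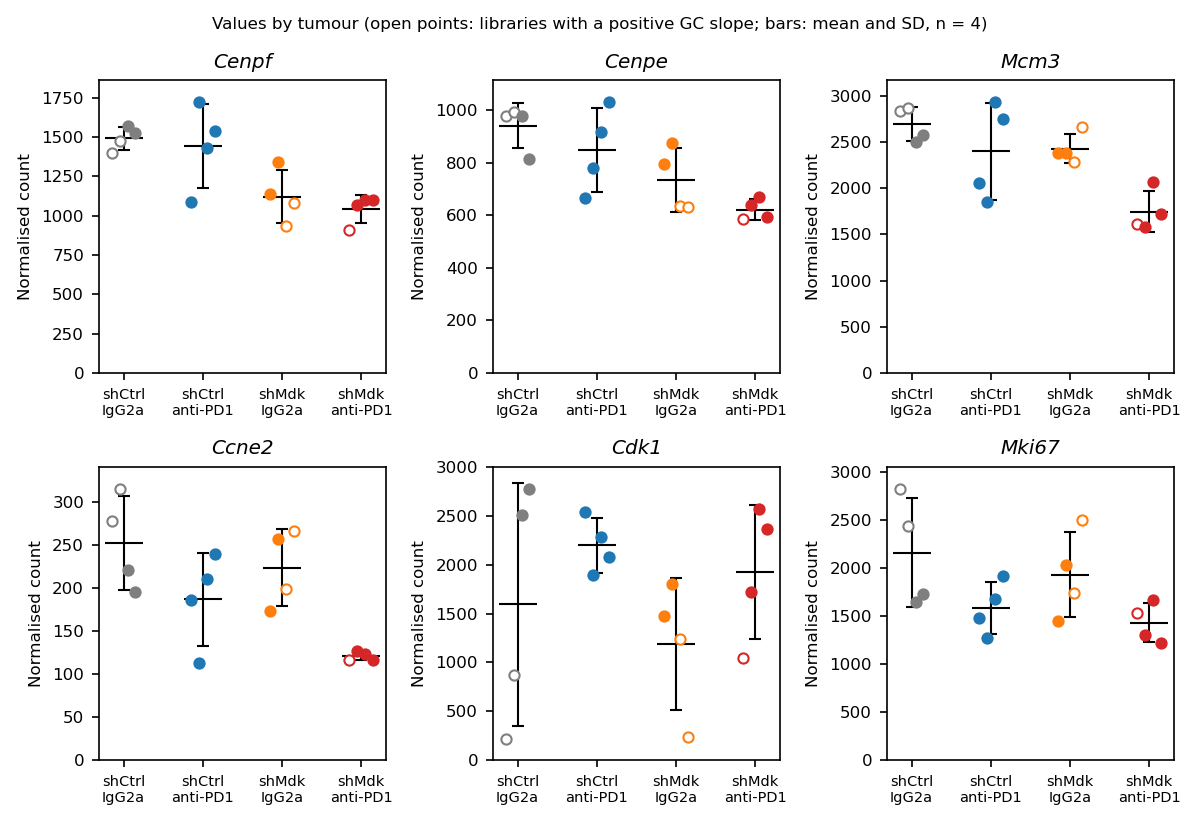
Normalised counts (y axis, from 0) of Cenpf, Cenpe, Mcm3, Ccne2, Cdk1 and Mki67 in the 4 groups, 1 point per tumour, with bars for the mean and SD (n = 4). Open points are the 5 libraries with a positive GC slope, which include the lowest Cdk1 (221) and the highest Mki67 (2829.9) value.

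Under IgG2a alone, no member passed between the lines, where 1.74% of all genes did and 0.109% did in the lower direction. Of the 40 members, 31 were lower by sign, with a median of -0.15 against -0.01 for all genes. Without the 5 libraries the median was -0.25, with 34 of 40 lower. These signs are not independent of each other. The members' median deviation by tumour overlapped between the lines, at -0.41 to 0.31 in shCtrl and -0.31 to 0.14 in shMdk. Cenpf was the member with the smallest adjusted p (-0.42 ± 0.14, limma adjusted p = 0.223) and the 1 member whose groups did not overlap, in a direction where 1.93% of all genes did not overlap. Unadjusted, 3 members (7.5%) and 9.69% of genes had a p under 0.05. Without the 5 libraries, which left 2 tumours in each of these groups, Aurkb was called lower (-1.44, limma adjusted p = 0.0464), where 0.184% of all genes were.

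Under anti-PD1 alone no member passed either, where 5.93% of all genes did and 0.995% did in the lower direction. Here 36 of 40 were lower in shMdk by sign, with a median of -0.27 against -0.02 for all genes. Again these signs are not independent. The members' median deviation by tumour overlapped, at -0.17 to 0.36 in shCtrl and -0.40 to 0.26 in shMdk. The smallest adjusted p values were 0.0799 for Cenpf (-0.45 ± 0.14), 0.0936 for Mcm3 (-0.44 ± 0.15) and 0.11 for Cenpe (-0.43 ± 0.15), all from limma. Unadjusted, 6 members (15.0%) and 17.8% of genes had a p under 0.05. Without the 5 libraries none was called, and the median was -0.15 with 31 of 40 lower. Without the 2 libraries high in Gm42418, or with the GC slope as a covariate, Mcm3 and Ccne2 were called lower, 5.0% of members, where 1.58% and 3.18% of all genes were.

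The comparisons of antibodies and of lines draw on the same 16 tumours and so are not independent of each other. Anti-PD1 against IgG2a moved no member past the threshold in either line. In shCtrl tumours no gene of the table was called (0), and 1 member (2.5%) against 3.79% of genes had an unadjusted p under 0.05. The 3 smallest p were those of Mki67 (-0.42 ± 0.20), Ccne2 (-0.46 ± 0.22) and E2f1 (-0.38 ± 0.19), each with a limma adjusted p of 0.798. Of the 40 members 18 were lower and 22 higher by sign, with a median of 0.07.

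That direction changed with the libraries counted. Of the shCtrl IgG2a tumours 2 have a positive GC slope, and none of the shCtrl anti-PD1 tumours does. Without the 5 libraries, only tumours 3 and 4 of shCtrl IgG2a stood against 4 anti-PD1 tumours, among them tumour 2 with its 4.47% of Gm42418. In that fit 39 of 40 members were lower with anti-PD1 and the median was -0.14, against -0.01 for all genes. These signs share the same few tumours and are not independent of each other. Mki67 was then at -0.11 and E2f1 at -0.20. Cdk1 went from 1.02 ± 0.67 to -0.27. No member was called in either case.

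In shMdk tumours 0.0341% of genes were called between the antibodies and 0 members. Ccne2 had the smallest p of the members. Its normalised counts were 174, 256, 199 and 266 with IgG2a and 117, 127, 123 and 117 with anti-PD1, so these groups did not overlap. In shCtrl it had 278, 315, 221 and 196 with IgG2a and 186, 113, 210.1 and 239 with anti-PD1, with overlap. The log2 difference in shMdk was -0.86 ± 0.22 (SE, limma adjusted p = 0.178), and it was -0.78 (0.350) without the 5 libraries.

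Mcm3, whose values are above, also did not overlap in shMdk tumours (-0.48 ± 0.15, limma adjusted p = 0.234, and -0.42 without the 5 libraries, adjusted p = 0.455). These 2 of 40 members stood against 4.10% of all genes without overlap in that direction. Mcm5, another helicase subunit, had 976, 1035, 1206 and 1198 with IgG2a and 773, 668, 1004 and 788 with anti-PD1 in shMdk tumours. In shCtrl it had 1290.0, 1262, 999 and 1027 with IgG2a and 891, 781, 1108 and 1156 with anti-PD1. Its shMdk groups overlapped by 1 tumour (-0.46 ± 0.16, limma adjusted p = 0.274, and -0.31 without the 5 libraries, adjusted p = 0.580). Signs were split, with 21 of 40 lower and a median of -0.04, or -0.02 without the 5 libraries. Leaving out 1 tumour moved this median from -0.13 to 0.05.

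Over both lines 0 members and 0.0477% of all genes were called. An unadjusted p under 0.05 was reached by 7 members (17.5%), namely Ccne2, Mcm3, Mcm5, Mcm7, Mki67, Top2a and E2f1, and by 16.8% of genes. All 7 were lower with anti-PD1, with Ccne2 at -0.66 ± 0.16 (limma adjusted p = 0.160) and Mki67 at -0.42 ± 0.14 (0.238). The same 7 read higher in the 5 libraries than in the others of their groups, by 0.03 (Mcm3) to 0.35 (Mki67) log2 units, and 4 of the 5 libraries are IgG2a tumours. With all libraries Mcm3 was at -0.34, Mcm5 at -0.34, Mcm7 at -0.37, Top2a at -0.31 and E2f1 at -0.31. Without the 5, Mcm3 was at -0.26, Mcm5 at -0.19, Mcm7 at -0.19, Top2a at -0.19, E2f1 at -0.11, Mki67 at -0.21 and Ccne2 at -0.49. No member was called in shMdk, over both lines or in the test of the difference between lines without the 5. The part of the libraries in these differences was not tested further.

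The anti-PD1 effect did not differ between the lines for any member by the test of that difference itself (0 of 40, and 0 of all genes). The adjusted p of every member was 0.9998, and no member had an unadjusted p under 0.05, against 3.45% of genes. The largest difference was that of Ccne2 at -0.40 ± 0.31. For Mcm3 it was -0.29 ± 0.21 and for Tyms -0.21 ± 0.20. For 13 of the 40 members the 95% interval of this difference reached beyond a 2-fold change, Cdk1, Aurkb and Ccne2 among them.

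Exact permutation tests, two-sided, of 14 members, 4 tumours against 4 and not adjusted for the 56 tests, gave p = 0.0286, the smallest that 70 arrangements allow, in 3 cases. These were Cenpf between the lines under IgG2a, and Ccne2 and Mcm3 between the antibodies in shMdk tumours. They are the pairs of groups without overlap given above, which always give this p. These members were also picked by their small limma p in the same tumours, so the tests add no separate support.

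The lists of other mitosis and DNA replication genes were mostly lower in shMdk by sign, and the list of G1 regulators was not. Of 81 other mitosis genes 11 fell in shMdk over both antibodies and none rose, where 2.17% of all genes fell, with 75 of 81 lower by sign and a median of -0.26. Cdkn3, a phosphatase of cyclin-dependent kinases, fell by 0.69 (limma adjusted p = 0.00151) and Cdca2, a partner of a mitotic phosphatase, by 0.55 (0.00407). Kif14, a kinesin of cytokinesis, fell by 0.69 (0.00808) and Hmmr, a spindle protein, by 0.59 (0.0123) on the log2 scale. The others included Ube2s, G2e3, Dlgap5, Smc4, Kpna2 and Ttk. Without the 5 libraries 6 of 81 were called lower, where 1.31% of all genes were, and 75 of 81 were lower by sign. Of those 6, Cdkn3, Dlgap5 and Kif14 are among the 11 and Cks2, Nek2 and Gtse1 are not. Under anti-PD1 alone 5 were called lower, where 0.995% of all genes were, and under IgG2a alone none was, where 0.109% of all genes were.

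Of 42 other DNA replication genes 2 fell, against the same 2.17% of all genes. Dbf4, the activator of the replication kinase CDC7, fell by 0.41 (limma adjusted p = 0.0269) and Prim2, a primase subunit, by 0.38 (0.0469). In this list 37 of 42 were lower by sign with a median of -0.21, and none was called without the 5 libraries. Of 16 tested G1 regulators and CDK inhibitors 2 rose, where 6.23% of all genes rose, and 9 were lower by sign, with a median of -0.03. Cdk6, a kinase partner of the D cyclins, rose by 0.56 (limma adjusted p = 0.000415), from 594 ± 72.8 to 876 ± 109 (SD, n = 8), and Ccnd3, cyclin D3, rose by 0.40 (0.0330). Without the 5 libraries Cdk6 was at 0.55 (adjusted p = 0.00566) and Ccnd3 at 0.36 (0.0962), no longer past the threshold. Cdkn2a and Cdkn2b were not tested. None of 15 E2F, MuvB and B-MYB factors passed, and 14 of 15 were lower by sign.

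Markers of other cells moved with the hairpin in the same tumours. Over both antibodies 9 of 9 macrophage and monocyte markers, 7 of 7 tested T and NK cell markers and 3 of 4 pan-leukocyte markers were higher in shMdk, against the 6.23% of all genes. The summed macrophage markers were 327 to 862 in shCtrl IgG2a, 323 to 1219 in shCtrl anti-PD1, 1231 to 3198 in shMdk IgG2a and 2462 to 5796 in shMdk anti-PD1 tumours. T and NK cell markers summed to 4.76 to 55.2, 1.5 to 44.9, 107 to 167 and 160.2 to 376 in the same order. Among them Cd3e was at 0 in 5 shCtrl tumours, Prf1 in 4 and Cd8a in 3, and none was at 0 in a shMdk tumour.

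Melanocytic markers summed to 151635 to 187437, 134737 to 182973, 126434 to 146591 and 107394 to 143030.2 in that order of groups. None of these 7 passed between the lines over both antibodies, and all 7 were lower in shMdk by sign, with a median of -0.25. Fibroblast markers summed to 413 to 2371 in shCtrl and 1166 to 13211 in shMdk tumours, and endothelial markers to 377 to 678 and 500.2 to 1639, with 0 of 5 and 2 of 5 markers higher in shMdk over both antibodies. Under anti-PD1 alone 3 of 5 markers of each were higher, with medians of 2.13 for fibroblasts and 1.03 for endothelium, and under IgG2a alone none was. B and plasma cell markers summed to 75.7 to 187 in shCtrl and 145 to 788 in shMdk tumours, with 3 of 4 higher. The part of these other cells in the members' differences was not tested.

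Across single tumours the members' median deviation from their means was -0.41, 0.10, 0.26 and 0.31 in shCtrl IgG2a, 0.08, -0.17, 0.28 and 0.36 in shCtrl anti-PD1, -0.09, 0.14, 0.01 and -0.31 in shMdk IgG2a and -0.40, -0.21, 0.26 and -0.09 in shMdk anti-PD1 tumours. The 3 lowest were libraries with a positive GC slope. The highest macrophage sum (5796) was in shMdk anti-PD1 tumour 2, with a median of -0.21. The lowest sum (323) was in shCtrl anti-PD1 tumour 2, with a median of -0.17. That library also had the highest share of Gm42418 (4.47%) and the fewest reads (5686405). The highest median, 0.36, was in the shCtrl tumour with the highest sum of that line (1219). These tumours were picked after their values were seen, and the relation of medians to sums was not tested. Members took 0.376% to 0.600% of reads per tumour.

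**Figure D5:**
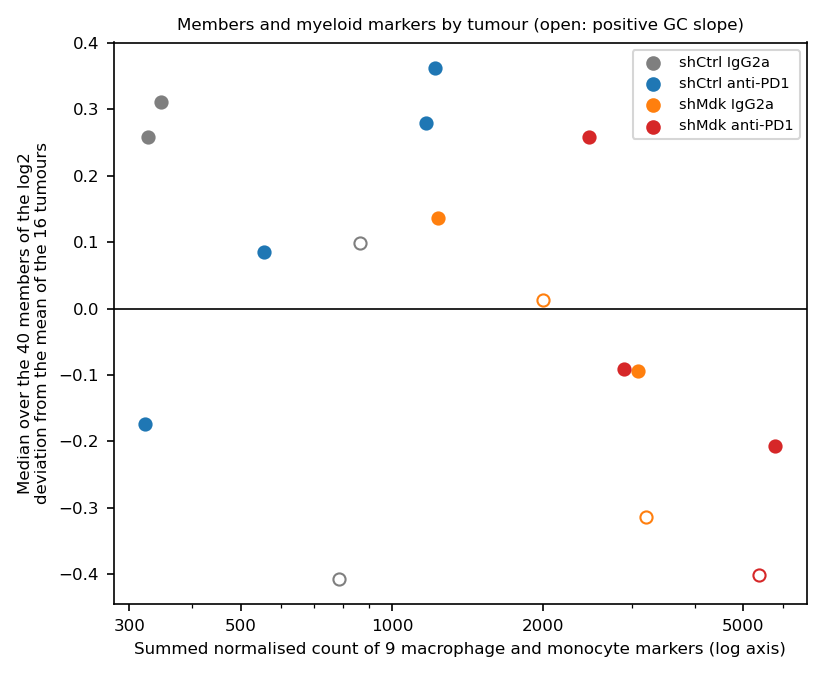
Median over the 40 members of the log2 deviation from the mean of the 16 tumours (y axis) against the summed normalised count of 9 macrophage and monocyte markers (x axis, log scale), 1 point per tumour. Open points are the 5 libraries with a positive GC slope. Tumours of the shMdk line lie to the right, and their members' medians run from -0.40 to 0.26.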

How the data were processed

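RNA from 16 tumours was made into stranded 3′ end libraries (QuantSeq FWD), per the labels' protocols. The deposited values are a signal of gene counts that the authors divided by DESeq2 size factors. TopHat2 2.0.10, Bowtie 1.0.0, SAMtools 0.1.19, FastQC 0.11.0, HTSeq and the mouse build GRCm38 (mm10) were named, per the submitters' processing notes. Dividing by the step of 1 read gave whole reads for 100.0% of values (tolerance 0.001). Because 3′ end counts rest on a short stretch of each transcript, sequence near the 3′ end can alter a gene's value.

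Groups were taken from the labels, and each sample is a tumour of its own, per the series design. The deposited values were tested as log2(value + 1) with limma 3.58.1 (R 4.3.3), with 4 group means over all 16 tumours, 12 residual degrees of freedom and a mean-variance trend, for 14672 genes with a mean of at least 5. Log2 differences are on that scale, which understates changes of low genes. P-values were adjusted by Benjamini-Hochberg over all tested genes in each of 7 comparisons, with a threshold of 0.05. "Lower by sign" means a negative estimate, whether or not it passed. The genes of a list share the same tumours, so their signs are not independent of each other. Intervals are 95% intervals from the same fit. Levels are normalised counts of 1 gene across tumours and are not compared between genes.

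The GC slope of a library is the slope of its genes' deviations from their means over the 16 tumours on the GC content of the last 300 transcript bases (GENCODE vM21 gene models). For each gene the longest transcript was used, a protein-coding one where present. Its end may differ from the end that was sequenced. Members and gene lists were chosen with earlier results of these data known. Members named are those past the threshold or with the 3 smallest p in a comparison, plus Mki67, Top2a, Ccnb1, Ccnd1, Mcm2 and Pcna. Values of Cdk1, Aurkb, Ccnb2 and the other genes named for the library pattern were chosen after they were seen. Alternatives were other pseudocounts (0.5 and 5), no filter or a mean of at least 20, TMM or equal totals, edgeR 4.0.16 and DESeq2 1.42.0 on the recovered reads, fits of only the compared groups, and leaving out each tumour. Leaving out the 5 libraries with a positive GC slope or the 2 high in Gm42418, and the GC slope as a covariate, were added after the data were seen. The fit was tested on simulated data with changes of 2-fold and 4-fold. Smaller differences, such as those of Cenpf and Cenpe, were not simulated.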

Additional observations from a re-analysis of the deposited data

Results flagged for a closer look

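In 4 of 56 groups of 4 tumours (14 members in 4 groups each), the lowest tumour stood far from the other 3. Chance does this in about 1 of 20 groups. Cenpf, the kinetochore gene, read 912 in shMdk anti-PD1 tumour 1, against 1070.3 to 1101 in the other 3. Mcm2, the helicase subunit, read 823 in shMdk IgG2a tumour 4, against 1548 to 1651. Both of these tumours are among the 5 libraries with a positive GC slope. Cenpe, the mitotic kinesin, read 815 in shCtrl IgG2a tumour 4, against 977 to 994. E2f1, the S phase activator, read 412 in shMdk anti-PD1 tumour 4, against 521 to 542.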

How the results depend on the processing

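No result changed direction past the threshold. Between the lines over both antibodies, where 2 members were called, equal totals left 1 (Cenpf), DESeq2 called 4, the fit without the 2 libraries high in Gm42418 called 4, and leaving out 1 tumour called 1 to 5 (5 without shCtrl IgG2a tumour 1). Over the whole table, 319 genes were called lower in the main fit, 173 with equal totals, 570 with DESeq2 and 370 without the 2 libraries. With 1 tumour left out, 191 to 449 were (350 without shCtrl IgG2a tumour 1). Under anti-PD1, where none was called, DESeq2 called 3, the fit without those 2 libraries 2, the GC covariate 2, and leaving out 1 tumour 0 to 2 (1 without shCtrl anti-PD1 tumour 1 and 2 without tumour 2). Genes of the table called lower there were 146 in the main fit, 348 with DESeq2, 229 without those 2 libraries and 466 with the GC covariate. With 1 tumour left out they were 49 to 184, at 73 without shCtrl anti-PD1 tumour 1 and 184 without tumour 2. Under IgG2a, the fit without the 5 libraries called 1, where 27 genes of the table were called lower, against 16 in the main fit. Between the antibodies, DESeq2 called 1 (Ccne2) in shMdk and 1 (Ccne2) over both lines. It called 79 and 75 genes of the table lower in these comparisons, against 1 and 0 in the main fit. Of the other mitosis genes, 11 called lower became 6 under equal totals, 6 without the 5 libraries and 7 to 14 with 1 tumour left out. Genes of the table called lower went from 319 to 173, 192 and 191 to 449 in the same order. Of the other DNA replication genes, 2 called lower became 0 under equal totals, 0 without the 5 libraries, 5 with DESeq2, 4 with the GC covariate, 3 without the 2 libraries and 0 to 4 with 1 tumour left out. With the GC covariate 738 genes of the table were called lower, and the counts for the other fits are given above. The cause of these changes was not tested. With 1 tumour left out, the members' median ran from -0.10 to 0.21 between antibodies in shCtrl (0.07 with all), -0.13 to 0.05 in shMdk (-0.04) and -0.06 to 0.08 over both lines (0.04), so its sign is not settled there. Between lines it ran from -0.30 to -0.05 under IgG2a (-0.15), -0.40 to -0.15 under anti-PD1 (-0.27) and -0.28 to -0.15 over both (-0.21). Of 645 values of single members under the alternatives, 626 kept their direction and side of the threshold. These belong to 27 results, of which only Cenpf and Cenpe over both antibodies were called in the main fit, so most are differences that stayed not called. Of the 2 calls, that of Cenpe was lost in 6 of 27 alternatives and that of Cenpf in 1 of 27. Counts over all genes that differed by more than 1.5 times were these. Between antibodies in shMdk, 5 became 248 with DESeq2, 8 with edgeR, 54 with the GC covariate, 27 with a pseudocount of 5, 25 with only the compared groups, 3 with a pseudocount of 0.5, TMM or no filter, 11 without the 2 libraries, 1 without the 5, and 0 to 12 with 1 tumour left out. In shCtrl, 0 became 7 with DESeq2, 3 without the 2 libraries and 2 without anti-PD1 tumour 2. Over both lines, 7 became 218 with DESeq2, 11 with edgeR, 12 with the GC covariate, 39 without the 2 libraries, 0 without the 5, and 4 to 38 with 1 tumour left out (38 without shCtrl anti-PD1 tumour 2). Between lines under IgG2a, 255 became 449 with DESeq2, 414 with the GC covariate, 74 without the 5 libraries and 136 to 271 with 1 tumour left out. Under anti-PD1, 870 became 1310 with DESeq2, 1434 with the GC covariate and 443 to 858 with 1 tumour left out. Over both antibodies, 1233 became 1931 with the GC covariate and 745 without the 5 libraries, and equal totals gave 1140 genes higher and 173 lower, against 914 and 319. No paired analysis was possible because the labels give no replicate numbers. Between the lines over both antibodies, Aurkb, Bub1, Cdk1 and Mcm4 had 95% intervals that reached beyond a 2-fold change. With 4 tumours against 4, such intervals were found for 8 members under IgG2a and 11 under anti-PD1.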
